A study of Mus musculus with 4 samples.

Results

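The naive pluripotency factor genes Klf2, Klf4, Klf5, Esrrb, Tfcp2l1, Tbx3, Prdm14, Zfp42, Dppa3 and Tdgf1 were examined for accessible chromatin at their promoters and in the DNA around them. These 10 genes were chosen by name, out of 21938 protein-coding genes on the 21 assembled mouse chromosomes, and all 10 were found in the annotation. Accessibility came from ATAC-seq, in which a transposase cuts open chromatin and the cut fragments are sequenced. The values are the positions and widths of listed peaks, which are intervals where such fragments piled up. All libraries were from E14, a mouse embryonic stem cell (ESC) line, grown in serum with LIF, infected with a pLKO lentivirus that carried a short hairpin RNA, selected for 2 days with puromycin at 2 μg/ml and taken 2 days later. One library carried a hairpin against GFP (shGFP) and 3 carried a hairpin against luciferase (shLuc replicates 1 to 3). Mice have neither target gene, so both hairpins are non-targeting controls, and the comparison of shGFP with shLuc asks how much control libraries differ around these genes.

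ESCs in a naive state resemble the epiblast of the embryo before implantation, and LIF sustains that state through STAT3. Many of the naive factors form a network in which they support each other's transcription, and many are switched off as the cells leave the state. Many of their enhancers lie outside the promoter, within introns or in intergenic DNA, and are bound by several members of the network at once.

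The lists held 41943 peaks in shGFP and 17860, 41401 and 31585 in shLuc replicates 1, 2 and 3. Lists of positions do not give sequencing depth, and nothing in the labels says whether the shLuc replicates came from separate cultures. With 1 library against 3 the smallest exact permutation p is 0.25, so no test was run. Each library's value is given, and shLuc is also summarised as its mean ± SD (standard deviation). A listed peak is not expression, and a gene with no listed peak may still be accessible below the threshold of the peak caller. All libraries came from 1 cell line, so peaks at marker genes describe that line and cannot separate cell types. Of 8 pluripotent cell markers, Zfp42 had a promoter peak in 4 libraries, Utf1 in 3, Esrrb in 2 and the other 5 in none. Of 10 fibroblast markers, 4 (Col1a1, Thy1, Twist1 and Snai2) had one in all 4 libraries and 3 in none. Of 10 extraembryonic markers, 1 (Sox17) had one in all 4 and 3 in none. The shares of all protein-coding genes were 42.5% in all 4 and 35.3% in none. Distal peaks (defined below) were in all 4 libraries at Pou5f1, Zfp42, Esrrb, Dppa5a, Fgf4 and Utf1. They were in 3 at Nanog and in 1 at Sox2. In all 4 they were at 2 fibroblast and 3 extraembryonic markers and at 33.3% of all genes.

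A promoter peak was a listed peak within 1 kb of the start of any transcript of the gene. All 4 libraries listed one for Klf5, Tfcp2l1 and Zfp42, while Klf2, Klf4, Esrrb and Tbx3 had one in 2 or 3 libraries, and Prdm14, Dppa3 and Tdgf1 had none in any. The 200 bases upstream of the gene start are printed for the first and the last of these groups of genes, which always or never had a promoter peak. At Tfcp2l1 the peaks covered 141 of these bases in shGFP and 89, 200 and 176 in shLuc. The same window upstream of Esrrb, not printed, was not covered by a listed peak in any library either. Sequences are from GRCm38, which has the coordinates of mm10, and read 5′ to 3′ on the strand of the gene. Capitals mark matches, on either strand, to the KLF motif GGGNGTGG, to the octamer ATGCNAAT, or to the TFCP2L1 motif, which is CCAG, 6 bases of any kind and CCAG again. The windows lie at chr14:99298491-99298690 for Klf5, chr1:118627745-118627944 for Tfcp2l1, chr8:43306981-43307180 for Zfp42, chr1:13127164-13127363 for Prdm14, chr6:122626210-122626409 for Dppa3 and chr9:110946159-110946358 for Tdgf1. Klf5, Tfcp2l1 and Dppa3 are on the plus strand and the others are on the minus strand.
Klf5 upstream: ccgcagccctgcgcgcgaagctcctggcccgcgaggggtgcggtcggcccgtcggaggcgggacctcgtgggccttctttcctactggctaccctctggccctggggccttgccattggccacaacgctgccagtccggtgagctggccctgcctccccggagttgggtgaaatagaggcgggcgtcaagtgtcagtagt
Tfcp2l1 upstream: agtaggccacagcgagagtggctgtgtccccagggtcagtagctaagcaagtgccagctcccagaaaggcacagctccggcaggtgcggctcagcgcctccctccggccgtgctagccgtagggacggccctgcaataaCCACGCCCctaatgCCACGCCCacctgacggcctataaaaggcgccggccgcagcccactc
Zfp42 upstream: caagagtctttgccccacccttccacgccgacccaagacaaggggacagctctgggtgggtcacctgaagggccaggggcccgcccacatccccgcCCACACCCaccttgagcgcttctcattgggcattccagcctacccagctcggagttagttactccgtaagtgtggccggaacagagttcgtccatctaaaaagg
Prdm14 upstream: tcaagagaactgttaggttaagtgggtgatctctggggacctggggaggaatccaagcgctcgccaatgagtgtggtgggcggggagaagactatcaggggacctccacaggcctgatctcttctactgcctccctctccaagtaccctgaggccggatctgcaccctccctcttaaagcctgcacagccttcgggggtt
Dppa3 upstream: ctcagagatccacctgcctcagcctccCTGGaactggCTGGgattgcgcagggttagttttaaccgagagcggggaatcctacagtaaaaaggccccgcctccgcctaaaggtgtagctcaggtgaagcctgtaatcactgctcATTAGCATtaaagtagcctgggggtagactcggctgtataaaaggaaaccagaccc
Tdgf1 upstream: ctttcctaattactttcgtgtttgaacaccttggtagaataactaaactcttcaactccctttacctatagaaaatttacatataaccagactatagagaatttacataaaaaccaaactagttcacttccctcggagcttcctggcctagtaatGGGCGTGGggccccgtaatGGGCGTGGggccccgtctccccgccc

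Of the 8 motifs searched in these upstream windows, the KLF motif was found at 3 of the 10 members, namely Tfcp2l1, Zfp42 and Tdgf1, against 15.2% of all protein-coding genes. Tfcp2l1 and Zfp42 had a promoter peak in every library and Tdgf1 in none. The octamer, which OCT4 binds, and the TFCP2L1 motif were each found at 1 member, Dppa3, against 2.12% and 2.19% of all genes. The E-box CACGTG, taken for comparison because no member binds it, was found only at Klf4, against 5.65%. No match to the ESRRB motif TCAAGGTCA (0.36% of all genes), the T-box motif AGGTGTGA (0.802%), the PRDM14 motif GGTCTCTAA (0.16%) or the STAT motif TTCCNGGAA (0.748%) lay in the 10 windows. A match says only that these letters stand in the window.

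**Figure D1:**
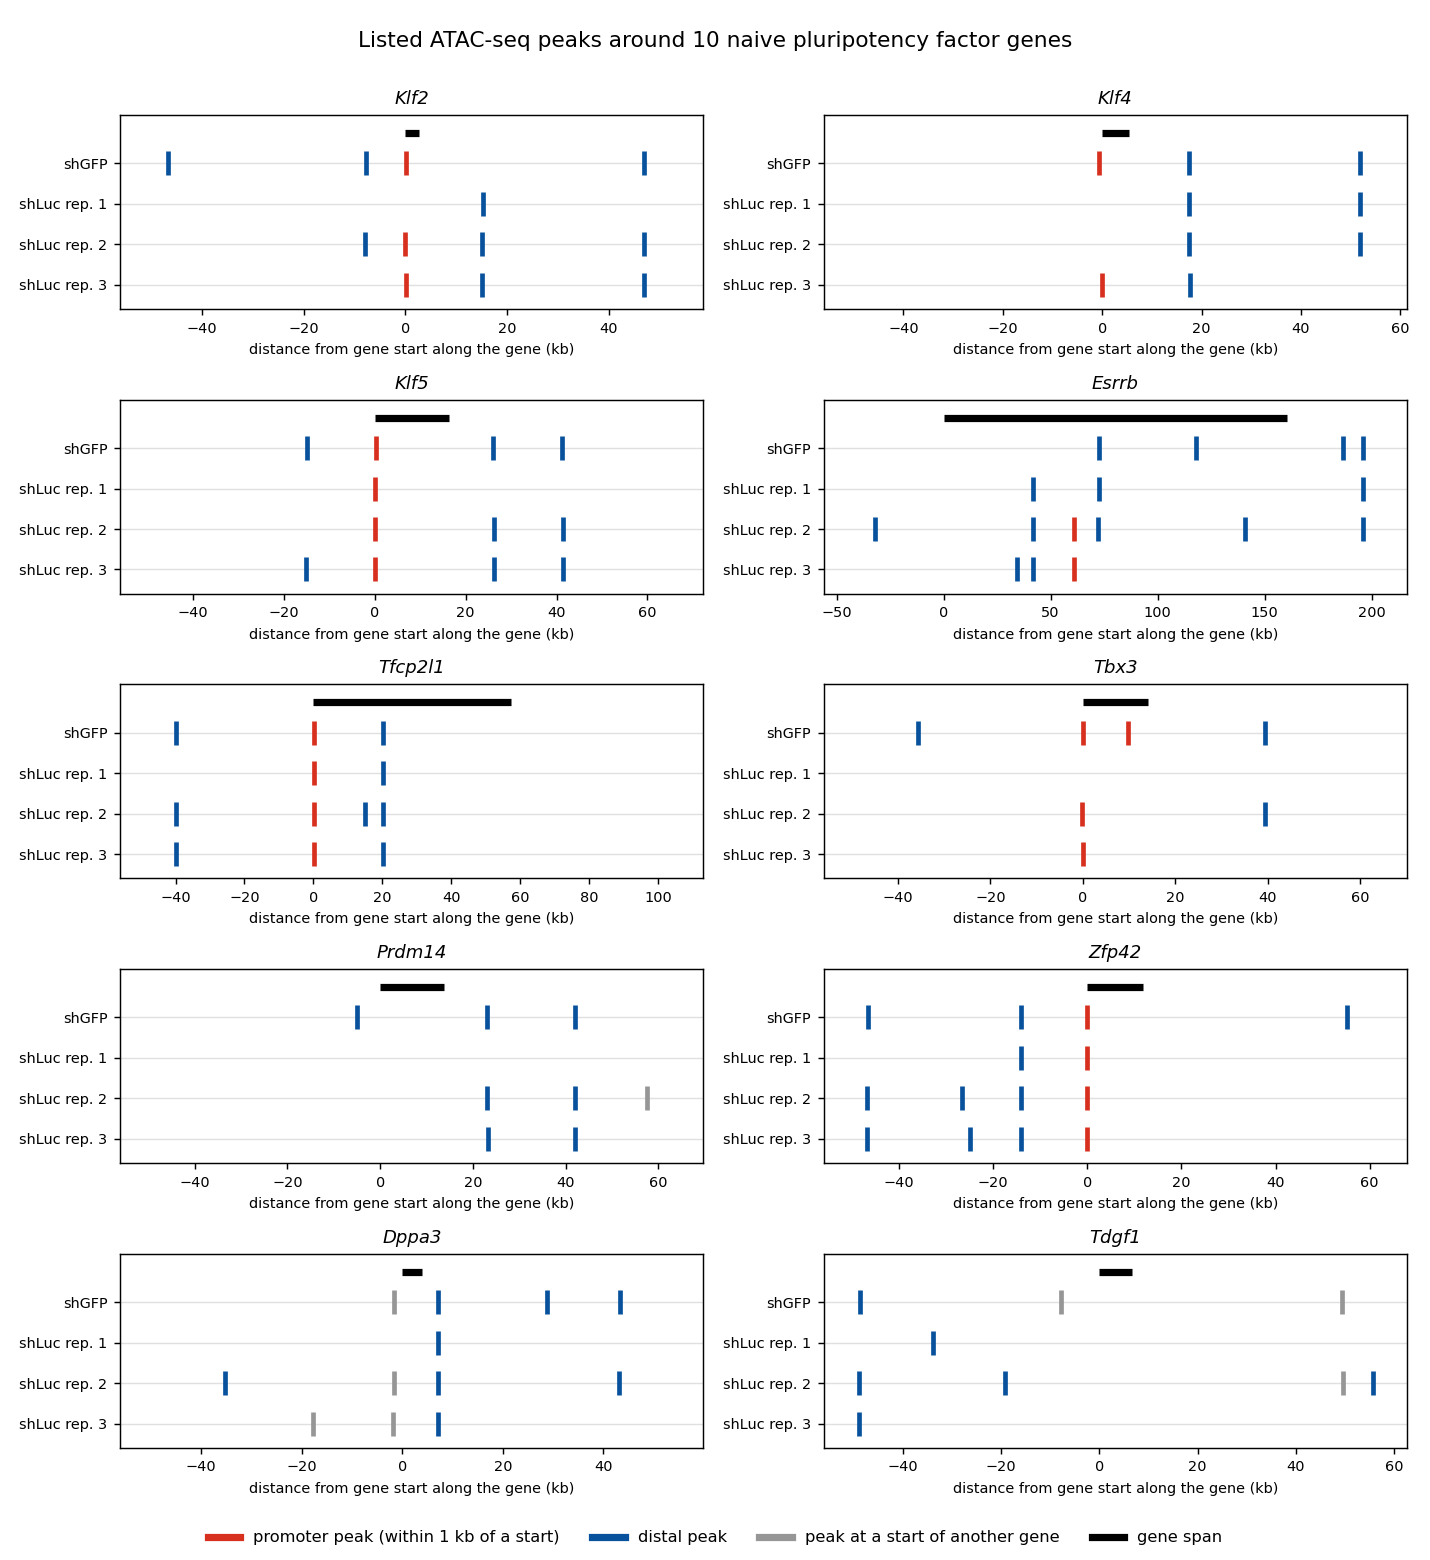
Listed peaks around each gene, by the distance of their midpoint from the gene start in kb along the gene, with 1 line per library. Ticks mark midpoints and do not show widths. Red ticks are promoter peaks, blue ticks distal peaks and grey ticks peaks at the start of another gene, and the black bar is the gene. Klf5, Tfcp2l1 and Zfp42 have a red tick in all 4 libraries, and Prdm14, Dppa3 and Tdgf1 in none.

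The 3 Krüppel-like factor genes encode zinc-finger proteins that can replace each other in part in self-renewal. Klf2 (ENSMUSG00000055148.7, chr8:72319033-72321656, plus strand) had a promoter peak of 821 bp in shGFP, 820 bp in shLuc replicate 2 and 794 bp in replicate 3, and none in replicate 1. Klf4 (ENSMUSG00000003032.8, chr4:55527143-55532466, minus strand), a target of LIF and STAT3, had one of 1559 bp in shGFP and 591 bp in shLuc replicate 3 only. Klf5 (ENSMUSG00000005148.8, chr14:99298691-99315036, plus strand) had one in every library, of 990 bp in shGFP and 722, 914 and 1048 bp in shLuc replicates 1, 2 and 3. All of these peaks overlapped a start of the gene itself. The Klf4 peak was wider than 93% of promoter peaks in shGFP and than 18.8% in shLuc replicate 3, so its width was the least alike between libraries of the 3 genes.

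Distal peaks lay in the gene or within 50 kb of it and over 1 kb from every start of every gene. Klf2 had 3, 1, 3 and 2 of them in shGFP and in shLuc replicates 1, 2 and 3. Its widest, 571, 991 and 843 bp in the 3 shLuc replicates, lay 14997, 14646 and 14646 bp downstream of the start and was not listed in shGFP. Klf4 had 2, 2, 2 and 1. One of them, 561 bp in shGFP and 402, 694 and 640 bp in shLuc, was listed in every library at 16438, 16510, 16531 and 16574 bp from the nearest Klf4 start, downstream of the gene and outside any annotated gene. The shLuc libraries without a Klf4 promoter peak, replicates 1 and 2, thus still had this intergenic peak. Klf5 had 3, 0, 2 and 3, so that in shLuc replicate 1 its promoter peak stood alone. The Klf5 peak 14416 bp upstream in shGFP and 14564 bp upstream in shLuc replicate 3 lay in repeated DNA, where 88.3% of the 50-base words occur more than once in the genome, and reads with several equally good positions had been placed at random.

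Esrrb and Tfcp2l1 encode an orphan nuclear receptor and a grainyhead-like factor, both targets of the signals that hold the naive state. Esrrb (ENSMUSG00000021255.17, chr12:86361117-86521628, plus strand) is the longest member at 161 kb and has 5 annotated starts. No library listed a peak within 1 kb of the first of them. Its promoter peak, 1326 bp in shLuc replicate 2 and 808 bp in replicate 3, overlapped starts 60.5 and 60.8 kb into the gene, and was not listed in shGFP or shLuc replicate 1. With only the gene start counted, Esrrb had no promoter peak at all. Tfcp2l1 (ENSMUSG00000026380.10, chr1:118627945-118685168, plus strand) had a peak over its start in every library, of 688 bp in shGFP and 286, 770 and 630 bp in shLuc. The peak of 286 bp in shLuc replicate 1 was wider than only 2.73% of promoter peaks of that library.

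Distal peaks of Esrrb numbered 4, 3, 5 and 2 in shGFP and in shLuc replicates 1, 2 and 3, and they fell into 8 separate regions, 5 of them in introns. The intronic peak 11510, 11505 and 11308 bp from the nearest start, with widths of 256, 263 and 563 bp, was listed in shGFP and in shLuc replicates 1 and 2. A second intronic peak, 401, 902 and 797 bp wide, was listed in the 3 shLuc replicates and not in shGFP. No distal region of Esrrb was listed in all 4 libraries, although every library had at least 2. Tfcp2l1 had 2, 1, 3 and 2 distal peaks. The one in its intron, 744 bp in shGFP and 489, 689 and 844 bp in shLuc, was listed in every library, 19902, 19907, 19946 and 19785 bp from the nearest start. The Tfcp2l1 peak in an intron of the neighbouring gene Clasp1, found in shGFP and in shLuc replicates 2 and 3, lay in DNA with 93.5% repeated words.

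Tbx3, a T-box repressor and activator, and Prdm14, a zinc-finger protein that holds down FGF signalling and DNA methylation in ESCs, were the members without any listed peak in their window in shLuc replicate 1. Tbx3 (ENSMUSG00000018604.18, chr5:119670669-119684724, plus strand) had a promoter peak of 1138 bp in shGFP and of 1072 and 864 bp in shLuc replicates 2 and 3. The antisense gene Tbx3os1, starts within the reach of the same peak, so the peak cannot be given to one of the genes. In shGFP a peak of 1176 bp also covered an internal start 9.58 kb into Tbx3, which carries no protein-coding transcript. Tbx3 had 2 distal peaks in shGFP, 1 in shLuc replicate 2 and none in replicates 1 and 3.

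Prdm14 (ENSMUSG00000042414.7, chr1:13113457-13127163, minus strand) had no promoter peak in any library, while distal peaks numbered 3, 0, 2 and 2. The peak downstream of Prdm14, 1203 bp in shGFP and 970 and 745 bp in shLuc replicates 2 and 3, lay 22482, 22564 and 22928 bp from the start. Another, 784, 748 and 722 bp wide in the same libraries, lay 41597, 41702 and 41722 bp from it. Only shGFP listed a peak nearer to the start, 685 bp wide and 4616 bp upstream. So in 3 of 4 libraries Prdm14 had the same pair of downstream regions and an unlisted promoter.

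Zfp42 (Rex1) and Dppa3 (Stella) are widely used as marks of naive cells, and Tdgf1 (Cripto) encodes a co-receptor of Nodal at the cell surface. Zfp42 (ENSMUSG00000051176.6, chr8:43295063-43306980, minus strand) had a narrow promoter peak in every library, of 409 bp in shGFP and 379, 427 and 391 bp in shLuc replicates 1, 2 and 3. That peak was narrow for a promoter in every list, being wider than 4.7%, 10.6%, 6.14% and 4.7% of promoter peaks. Its widths differed by less between libraries than those of Klf5 or Tfcp2l1. Zfp42 also had 3, 1, 3 and 3 distal peaks, of which the one 13736, 13830, 13722 and 13727 bp upstream was found in every library, with widths of 676, 509, 647 and 601 bp. At this gene both the promoter peak and an upstream peak thus recurred in all 4 lists.

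Dppa3 (ENSMUSG00000046323.8, chr6:122626410-122630272, plus strand) had no promoter peak, but its nearest peak lay just outside the limit of 1 kb in 3 libraries. That peak, 415 bp in shGFP and 377 and 413 bp in shLuc replicates 2 and 3, was 1469, 1523 and 1572 bp upstream and within 1 kb of the start of Gm26168. In shLuc replicate 1 the nearest peak was the distal one downstream of Dppa3, which every library listed. It was 536 bp wide in shGFP and 327, 548 and 402 bp in shLuc, and lay 6406, 6594, 6411 and 6606 bp from the nearest start. Dppa3 had 3, 1, 3 and 1 distal peaks.

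Tdgf1 (ENSMUSG00000032494.12, chr9:110939603-110946158, minus strand) had 1, 1, 3 and 1 distal peaks and no promoter peak in any library. Its nearest peak lay 7441 bp away in shGFP, at the start of Lrrc2, and 33674, 18986 and 48614 bp away in shLuc replicates 1, 2 and 3. The peak 48546, 48581 and 48614 bp upstream in shGFP and in shLuc replicates 2 and 3, with widths of 390, 345 and 360 bp, was in an intron of another gene, Gm10030. No library listed a peak inside Tdgf1 itself, and although every library had a distal peak, no distal region was listed in all 4. Each distal region lay nearer to a start of Als2cl, Lrrc2 or Rtp3, at 2.44 to 9.66 kb, than to a start of Tdgf1. The distal peak in shLuc replicate 1 was 233 bp wide, where the narrowest peak of that list was 221 bp.

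**Figure D2:**
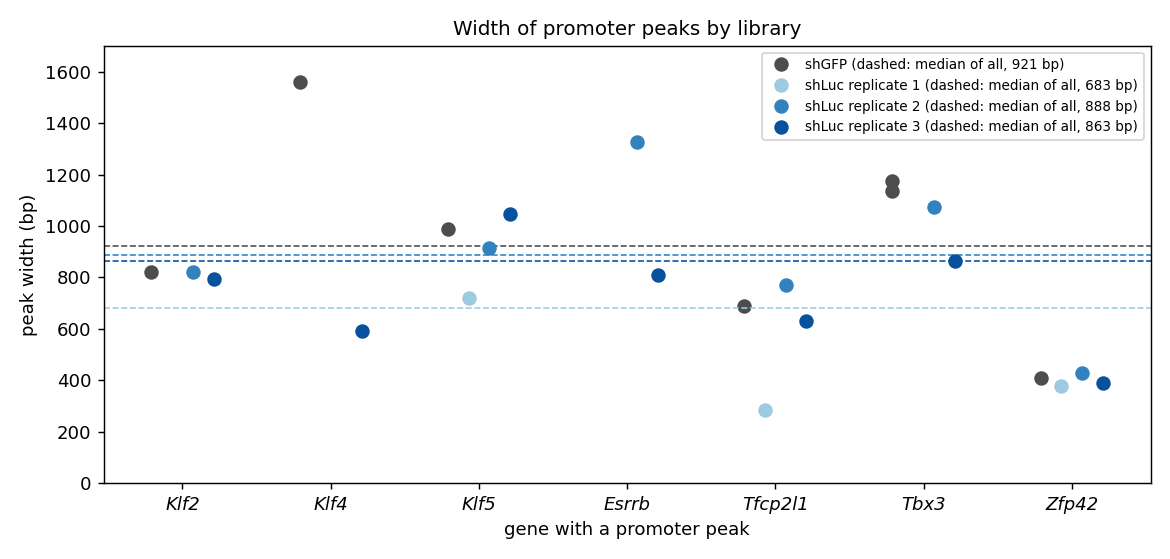
Width in bp of the promoter peaks of the 7 members that had one, by library, with the median of all promoter peaks of protein-coding genes as dashed lines. Zfp42 lies between 379 and 427 bp in all 4 libraries, and Klf4 is at 1559 bp in shGFP and 591 bp in shLuc replicate 3.

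The promoter peaks of the members were not uniformly wide or narrow. Their median width was 990 bp in shGFP against 921 bp over all promoter peaks of protein-coding genes, and 379, 867 and 794 bp in shLuc replicates 1, 2 and 3 against 683, 888 and 863 bp. In shLuc replicate 1 that median was of 3 peaks. Distal peaks of the members had median widths of 556.5 bp in shGFP against 541 bp, and of 384, 563 and 709 bp in shLuc against 489, 538 and 547 bp.

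The question of promoter against distal accessibility was asked by counting members and all protein-coding genes in the same way. In shGFP, 6 of 10 members had a promoter peak, where the share over all genes was 60.7%. In shLuc replicate 1 there were 3 members, at 46.8% of all genes. Replicates 2 and 3 had 6 and 7 members, at 60.3% and 55.1%. The count of the members was within 2 genes of the background share in every library, so promoter presence did not set them apart. The shGFP count was within the spread of shLuc, 5.33 ± 2.08 (SD, n = 3). A promoter peak in all 4 libraries was found at 3 members and at 42.5% of all genes, and one in no library at 3 members and at 35.3%. Without shLuc replicate 1, which had the fewest peaks, the count found in every library rose to 5, by Klf2 and Tbx3. With windows of 5 kb the members in no library numbered 1, Tdgf1 being the one whose nearest peak stayed outside. The shares of all genes under both alternatives are not given, so these counts cannot be set against the background.

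Distal peaks were found at more members than promoter peaks were, in each library. The DNA searched for distal peaks, the gene and 50 kb on either side, was longer than that searched for promoter peaks. Over all genes the distal share was also above the promoter share in shGFP and shLuc replicates 2 and 3, and below it in replicate 1. All 10 members had a distal peak in shGFP and in shLuc replicate 2, where the shares over all genes were 77.2% and 76.8%. Replicate 1 had 7 members, at 39.6% of all genes, and replicate 3 had 9, at 63.8%. The mean of shLuc was 8.67 ± 1.53 (SD, n = 3), and shGFP lay within its range. Klf2, Klf4, Esrrb, Tfcp2l1, Zfp42, Dppa3 and Tdgf1 had a distal peak in all 4 libraries, which makes 7 of 10, against 33.3% of all genes. The distal peaks counted for Tdgf1 all lay nearer to the start of another protein-coding gene. At Klf4, Tfcp2l1, Zfp42 and Dppa3 one region was listed in all 4, and at Klf2, Esrrb and Tdgf1 no single region was. No member lacked a distal peak in every library, against 14.7% of all genes.

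The excess of distal peaks moved with the length and the widths of the lists. With every list held to its 17860 widest peaks, the members with a distal peak numbered 3 in shGFP and 7, 5 and 6 in shLuc, against 32.4%, 39.6%, 33.6% and 33.1% of all genes. Members with a distal peak in all 4 libraries then numbered 1, and the share of all genes for that count is not given. Within 20 kb in place of 50 kb, members with a distal peak numbered 8 in shGFP and 6, 9 and 8 in shLuc. The shares of all genes were 55.4%, 23.5%, 54.5% and 42.6%.

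**Figure D3:**
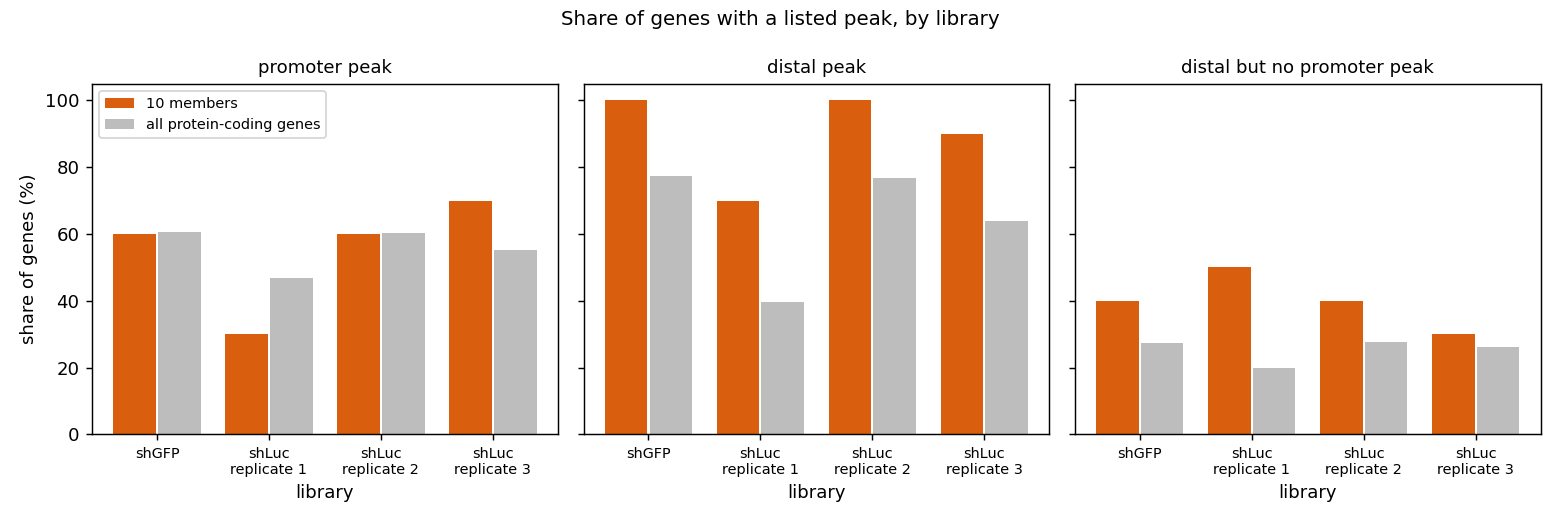
Share of genes in percent with a promoter peak, with a distal peak, and with a distal but no promoter peak, in each library, for the 10 members (orange bars) and all protein-coding genes (grey bars). For promoter peaks the orange bars lie on either side of the grey ones, from 3 to 7 members, and for distal peaks they lie above them in all 4 libraries, from 7 to 10 members.

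Members with a distal but no promoter peak numbered 4 in shGFP (Esrrb, Prdm14, Dppa3 and Tdgf1), against 27.5% of all genes. There were 5 in shLuc replicate 1 (Klf2, Klf4, Esrrb, Dppa3 and Tdgf1), against 19.8%, and 4 in replicate 2 (Klf4, Prdm14, Dppa3 and Tdgf1), against 27.8%. Replicate 3 had 3 (Prdm14, Dppa3 and Tdgf1), against 26.1%. The shLuc mean of 4 ± 1 (SD, n = 3) equalled the shGFP count. Over the 4 libraries together, Prdm14, Dppa3 and Tdgf1 had distal peaks and never a promoter peak, which is 3 of 10 against 27.1% of all genes, and so close to the background.

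In number, distal peaks of the members came to 26 in shGFP and 10, 27 and 17 in shLuc, with a shLuc mean of 18 ± 8.54 (SD, n = 3). The median member had 3 in shGFP and 1, 3 and 2 in shLuc, and the median protein-coding gene had 1, 0, 1 and 1. Per 100 kb of DNA searched, the members had 2.01 distal peaks in shGFP and 0.774, 2.09 and 1.32 in shLuc, against 1.21, 0.362, 1.17 and 0.796 over all genes. The density around the members was thus above that of all genes in all 4 libraries, on lists of unequal length. At equal length there were 7 distal peaks in shGFP and 10, 7 and 10 in shLuc. Per 100 kb these were 0.542 in shGFP and 0.774, 0.542 and 0.774 in shLuc, against 0.289, 0.362, 0.298 and 0.299 over all genes. In shGFP they lay around 3 members, a share near that of all genes.

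**Figure D4:**
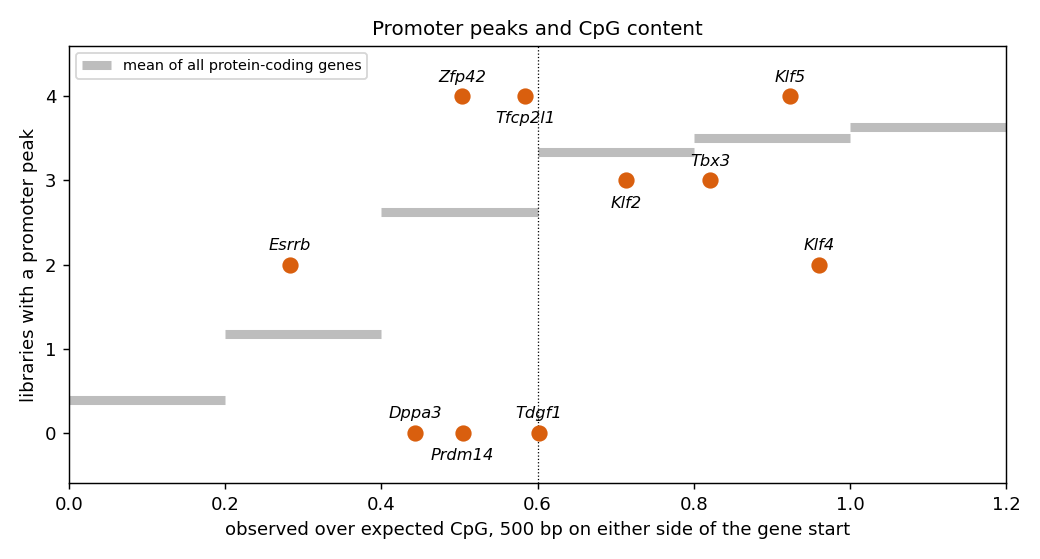
Number of libraries with a promoter peak, from 0 to 4, against the observed over expected CpG ratio within 500 bp of the gene start, for the 10 members (points) and as the mean over all protein-coding genes in ranges of the ratio (grey bars, the last range drawn to 1.2 only). The dotted line marks 0.6. Prdm14, Dppa3 and Tdgf1 lie at 0, and Esrrb is drawn at the ratio of its first start, although its peak lies over later ones.

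CpG-rich promoters are accessible in most cell types, and the members were split in that respect. Within 500 bp of the gene start, the observed over expected CpG ratio was at least 0.6 for Klf2 (0.713), Klf4 (0.96), Klf5 (0.923), Tbx3 (0.821) and, at 0.602, Tdgf1. It was lower for Tfcp2l1 (0.584), Prdm14 (0.504), Zfp42 (0.503), Dppa3 (0.443) and Esrrb (0.283). Tdgf1 and Tfcp2l1 lie so close to the limit that their class rests on it. Among the 5 CpG-rich members, 4 had a promoter peak in shGFP and 1, 3 and 4 in shLuc, where the shares over all such genes were 90.7%, 76.8%, 90.2% and 84.2%. Among the 5 others, 2 had one in shGFP and 2, 3 and 3 in shLuc, where the shares were 35.2%, 21.3%, 34.8% and 30.4%. The CpG-rich members had the higher count in shGFP and shLuc replicate 3, the same count in replicate 2 and the lower one in replicate 1. By member, Klf5, Tfcp2l1 and Zfp42 had a promoter peak in 4 libraries, and Klf2 and Tbx3 in 3. Klf4 and Esrrb had one in 2, and Prdm14, Dppa3 and Tdgf1 in none. The Esrrb peak, counted with the class of its gene start, lay over starts with ratios of 0.661 and 0.733.

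Peaks of the libraries that overlapped were merged into regions to see which distal elements recurred. The 10 members had 38 distal regions, 23 of them intergenic, 13 in introns and 2 in exons of neighbouring genes. Of the 38, 17 were listed in 1 library (44.7%, against 35.5% of all distal regions) and 4 in 2 (10.5% against 22.7%). A further 13 were in 3 (34.2% against 27%) and 4 in all 4. The share in all 4 was 10.5%, against 14.8% of 35545 distal regions of the genome, and the share in 3 or 4 was 44.7% against 41.8%. Of the 17 seen in 1 library, 7 were in shGFP and 1, 7 and 2 in shLuc replicates 1, 2 and 3. A pair of regions, downstream of Klf2 and in an Esrrb intron, was listed in the 3 shLuc libraries and not in shGFP. The shares of all distal regions for the split of the 17 and for this pair are not given. Neither can therefore be set against the background. Without shLuc replicate 1 the regions found in every library numbered 12, or 32.4% against 40.2% of all distal regions. Without replicate 3 they numbered 7, or 19.4% against 17.3%, so the members lay below or above the background by which library was left out. Repeats made up at least 50% of the centre of 3 regions, or 7.89%, against 29.8% of all distal regions.

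The regions listed in all 4 libraries are printed because they recurred in the most lists. They are named after the member they lie in or near, and no link to that gene was measured. Each lies outside annotated exons in the part shown, which is the central 300 bases, read on the plus strand, with matches to the KLF or TFCP2L1 motif in capitals. The part shown lies at chr4:55514790-55515089 for the region downstream of Klf4, at chr1:118648012-118648311 for the region in the Tfcp2l1 intron, at chr8:43320897-43321196 for the region upstream of Zfp42 and at chr6:122633310-122633609 for the region downstream of Dppa3. The whole regions were 787, 861, 690 and 602 bp wide.
Klf4 downstream region: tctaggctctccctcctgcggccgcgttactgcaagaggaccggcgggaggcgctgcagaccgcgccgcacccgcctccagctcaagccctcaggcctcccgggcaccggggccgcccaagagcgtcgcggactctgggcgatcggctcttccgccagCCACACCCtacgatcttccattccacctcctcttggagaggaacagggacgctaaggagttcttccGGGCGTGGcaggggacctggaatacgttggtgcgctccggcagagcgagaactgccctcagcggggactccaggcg
Tfcp2l1 intron region: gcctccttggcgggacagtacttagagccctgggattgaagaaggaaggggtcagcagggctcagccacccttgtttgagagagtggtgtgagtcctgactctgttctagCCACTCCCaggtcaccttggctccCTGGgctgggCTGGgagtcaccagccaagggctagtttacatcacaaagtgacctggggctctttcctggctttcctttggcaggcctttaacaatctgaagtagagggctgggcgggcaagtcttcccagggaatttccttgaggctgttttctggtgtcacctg
Zfp42 upstream region: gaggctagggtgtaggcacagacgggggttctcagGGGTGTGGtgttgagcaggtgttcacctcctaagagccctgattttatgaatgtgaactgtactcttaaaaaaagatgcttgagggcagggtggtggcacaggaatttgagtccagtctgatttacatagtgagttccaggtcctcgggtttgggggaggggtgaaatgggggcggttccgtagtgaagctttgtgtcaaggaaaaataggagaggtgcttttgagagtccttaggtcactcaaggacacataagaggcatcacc
Dppa3 downstream region: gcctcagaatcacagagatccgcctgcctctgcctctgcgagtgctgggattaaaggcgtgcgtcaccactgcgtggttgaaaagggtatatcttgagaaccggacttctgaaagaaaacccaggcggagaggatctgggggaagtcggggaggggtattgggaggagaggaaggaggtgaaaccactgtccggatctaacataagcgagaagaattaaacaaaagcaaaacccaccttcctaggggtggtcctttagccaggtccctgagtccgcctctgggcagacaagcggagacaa

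The KLF motif was in 3 of these 4 regions and the TFCP2L1 motif in the intron of Tfcp2l1 itself. In the central 200 bases the Zfp42 region held no KLF match. The share with the KLF motif among all distal regions listed in all 4 libraries is not given. Over the 38 distal regions the KLF motif was in 8, or 21.1%, around Esrrb, Klf4, Prdm14, Tdgf1, Tfcp2l1 and Zfp42, against 11.3% of all distal regions. With the central 200 bases in place of 300, 4 regions held it, and 7.81% of all did. The TFCP2L1 motif was in 4, or 10.5%, around Dppa3, Esrrb and Tfcp2l1, against 3.96%. The ESRRB motif was in 1, an intronic region of Esrrb listed in shLuc replicate 2 only, which is 2.63% against 0.802%. The octamer was in 3 (7.89% against 6.9%) and the E-box in 2 (5.26% against 4.08%). In the central 200 bases the ESRRB motif and the E-box were in 0 of the 38 regions, against 0.546% and 2.62% of all. No region held the T-box (1.45% of all regions), PRDM14 (0.197%) or STAT (1.16%) motif. The centres of the members' regions had a median G and C content of 51.3%, against 50.3% of all distal regions, and that of the Klf4 region was 68.3%. The part of base composition in these small counts was not tested.

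Other gene lists, chosen with earlier results of these data known, give the setting. Over all protein-coding genes, 60.7% had a promoter peak in shGFP, 46.8%, 60.3% and 55.1% in shLuc, and 42.5% in all 4 libraries. For distal peaks the shares were 77.2% in shGFP, 39.6%, 76.8% and 63.8% in shLuc, and 33.3% in all 4. Of 20 other pluripotency genes, 9 had a promoter peak in shGFP and 4, 9 and 6 in shLuc, 2 of them (Stat3 and Tet2) in all 4 libraries. A distal peak was found at 17 of them in shGFP and at 13, 15 and 18 in shLuc. The 16 primed and formative genes include many that rise when ESCs leave the naive state. Of these 16, 7 had a promoter peak in shGFP and 5, 8 and 7 in shLuc, with Eomes, Lin28b and Tcf7l1 in all 4. A distal peak was found at 13 of the 16 in shGFP and at 9, 15 and 14 in shLuc. Thus a distal peak in all 4 libraries was listed for 7 of 10 naive factor genes and 11 of 20 other pluripotency genes. Such a peak was listed for 9 of 16 primed and formative genes, and for 33.3% of all genes. Of 27 relatives of the members in the same protein families, 20 had a promoter peak in shGFP and 12, 20 and 19 in shLuc. In all 4 libraries, 12 had a promoter peak (44.4%, against 42.5% of all genes) and 9 a distal peak (33.3%, against 33.3%). Of 10 fibroblast markers, 2 had a distal peak in all 4 libraries, and of 10 extraembryonic markers 3 did, against 33.3% of all genes. These lists were not tested against each other.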

How the data were processed

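Per the files, the authors deposited 1 peak list per ATAC-seq library, with the chromosome, start and end of each peak and no height, score or p-value. The submitters' processing notes name bcl2fastq, Bowtie2 and MACS2 and the build mm10. The study's methods give alignment with bowtie2, random placement of reads with equal positions, and the use of concordant pairs only. The peak threshold, and any shift for the transposase, are not given in the sources used here. Peaks were read with Python 3.11.15 and numpy 2.4.6 against GENCODE mouse release 21 (141767 transcripts) and GRCm38 sequence (pysam). Repeated words were counted over both strands. A peak counted for a promoter when it came within 1 kb of any start of the gene. A distal peak overlapped the gene or its flanks of 50 kb by at least 1 bp and lay over 1 kb from every start of every gene. The functions were tested on simulated data, where 200 of 200 promoter calls were right. The members, gene lists and motifs were chosen with earlier results of these data known. All members are named. Of other lists, only genes with a promoter peak in all 4 libraries are named, or their number where these are over 5, besides the pluripotent cell markers used to check the label. Genes that neighbour the members were named after their values were seen. Alternatives were other windows, starts, list lengths, widths and regions, and leaving out each shLuc library.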

Additional observations from a re-analysis of the deposited data

How the results depend on the processing

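No paired analysis was possible because shGFP had 1 library and no result came from a test. Of 152 recomputed values, 37 fell and 10 rose by more than the shLuc spread, the confidence interval or 1.5 times. At equal list length (the 17860 widest peaks), members with a distal peak numbered 3 in shGFP and 6 on average in shLuc, distal peaks 7 and 9, members with a distal but no promoter peak 2 and 2.67, and members in all 4 libraries 1 for promoter and 1 for distal peaks. The shares of all genes were then 47.3% and 46.4% (promoter) and 32.4% and 35.4% (distal). With the widest 50% of each list these values were, in the same order, 4 and 4, 9 and 7, 2 and 1.67, 1 and 0, 51.2% and 41%, and 39.5% and 27.4%. A promoter window of 5 kb gave 2 members with a distal but no promoter peak in shGFP and 1 with a promoter peak in no library. Within 20 kb there were 11 distal peaks in shGFP, with 55.4% and 40.2% of all genes. Within 100 kb there were 41 and 27.3, with 90.8% of genes in shGFP. Keeping starts of other genes gave 90.3% and 82.2%, and 50 kb from the gene start gave 68.4%. The promoter share in shGFP was 59.6% at 500 bp, 62.7% at 2 kb, 67.9% at 5 kb, 59.2% for protein-coding transcripts, 56% for the gene start and 59.8% by midpoint. Leaving out 1 shLuc library, members with a promoter peak in all libraries ranged from 3 to 5. Distal regions in all libraries ranged from 4 to 12, and both were highest without replicate 1. For members with a peak in every library or in none, the shares of all genes under the alternatives are not given. Leaving out the 2 regions of mostly repeated words, an alternative chosen after seeing the data, left members with a distal peak at 10 in shGFP. In the central 200 bases, regions with the KLF motif fell from 8 to 4, with the ESRRB motif from 1 to 0 and with the E-box from 2 to 0. Lists of equal length held the widest peaks, so length and width changed together, and the cause of these shifts was not tested. Depth is unknown, and peaks could be ordered by width alone.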

Other observations

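Peaks at the starts of other genes lay within 50 kb of 3 members and were kept out of the distal counts. Near Dppa3, the peak at Gm26168 was listed in 3 libraries, and a peak of 974 bp at the start of Gdf3, a TGF-beta family gene expressed in ESCs, only in shLuc replicate 3. The distal region of 560 bp beyond Dppa3 that shGFP and shLuc replicate 2 listed lay nearer to the start of Nanog, another pluripotency gene, at 37.9 kb, than to a start of Dppa3. Near Tdgf1, the start of Gm43127 had a peak of 682 bp in shGFP and 492 bp in shLuc replicate 2. Near Prdm14, the start of Gm29283 had a peak of 506 bp in shLuc replicate 2. None of these peaks was listed in all 4 libraries.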
